A study of Schizosaccharomyces pombe with 6 samples.

Results

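The cytosolic ribosomal protein genes of the fission yeast *Schizosaccharomyces pombe* were examined as a group in captured chromosomal interactions. The group held the 252 AseI restriction fragments, of 9464 nuclear fragments in the tables, whose deposited annotation contains the words 60S or 40S ribosomal protein. Of these, 161 lay on chromosome I, 91 on chromosome II and 0 on chromosome III, whose annotation does not use those words. The gene text described the fragment itself in 102 fragments. In the other 150 it named the nearest coding sequence outside the fragment, at a median distance of 3771 bp. The fragments were 16 to 7779 bp long, with a median of 1238 bp.

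The interactions were measured by genome conformation capture (GCC), in which cross-linked chromatin is cut with AseI, ligated and sequenced, so that a read pair joining fragments that are not neighbours records a contact. Each of the 3 cell cycle phases had 2 biological replicates, 6 libraries in all, which the authors pooled in 1 table a phase. All strains were h- with a leu1 mutation and differed in the temperature-sensitive allele that arrested them after 4 h at 36 °C. Strain MY291 (cdc10-129) arrested in G1 phase, strain MY284 (cdc25-22) in G2 phase and strain MY286 (nuc2-663) in M phase, at anaphase. Phase, strain and library therefore cannot be told apart, and no spread between replicates could be taken from these pooled tables. The nuclear network of non-adjacent pairs held 2056860 counts in G1, 2196581 in G2 and 2119634 in M phase, and intervals below cover counting error only.

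Ribosomal proteins surround the ribosomal RNA in the small (40S) and large (60S) subunits of the ribosome. Yeast genomes keep many of their genes in duplicate, and the copies, or paralogues, lie at unlinked places and encode nearly the same protein. In *S. pombe* the copies carry the family number followed by the copy number, so that rpl301 and rpl302 are the copies of the rpl3 gene. The ribosomal RNA itself comes from the tandem rDNA repeats at both ends of chromosome III, which form the nucleolus.

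Some copies are identical over more than the length of a sequencing read of 50 bp, and others are not. The coding stretches below show this border, because the counts between copies changed there. Each is read 5′ to 3′ on the coding strand of the RefSeq reference (build ASM294v3). Capitals mark the longest stretch that both copies share without a mismatch, and lower case the next 12 bases on either side. All lie in coding sequence. The copies of rpl10, a protein of late 60S assembly, shared 149 bp (rpl1001 at chrII:2081733-2081905, plus strand, and rpl1002 at chrI:3744383-3744555, plus strand).
rpl1001: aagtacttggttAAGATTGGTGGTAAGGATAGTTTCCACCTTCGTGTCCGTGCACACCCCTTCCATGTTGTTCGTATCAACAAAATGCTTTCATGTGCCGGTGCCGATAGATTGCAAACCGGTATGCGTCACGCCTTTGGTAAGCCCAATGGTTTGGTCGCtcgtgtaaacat
rpl1002: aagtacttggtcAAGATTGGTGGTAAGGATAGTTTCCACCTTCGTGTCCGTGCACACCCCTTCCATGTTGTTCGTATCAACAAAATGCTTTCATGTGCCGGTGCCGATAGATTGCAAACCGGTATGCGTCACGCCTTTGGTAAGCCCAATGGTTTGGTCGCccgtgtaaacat
The copies of rps16, of the 40S subunit, shared 53 bp (rps1601 at chrII:1794169-1794245, plus strand, and rps1602 at chrI:1710769-1710845, minus strand).
rps1601: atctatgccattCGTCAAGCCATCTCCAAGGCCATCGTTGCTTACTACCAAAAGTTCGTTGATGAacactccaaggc
rps1602: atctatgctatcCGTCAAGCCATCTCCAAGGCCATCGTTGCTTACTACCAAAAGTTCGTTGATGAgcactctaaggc
The copies of rpl19 shared exactly 50 bp (rpl1901 at chrII:4123203-4123276, minus strand, and rpl1902 at chrIII:401211-401284, plus strand).
rpl1901: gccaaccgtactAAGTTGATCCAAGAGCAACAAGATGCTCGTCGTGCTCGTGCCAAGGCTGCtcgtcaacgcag
rpl1902: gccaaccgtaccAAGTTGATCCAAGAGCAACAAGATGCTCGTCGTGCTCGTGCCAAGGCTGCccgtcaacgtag
In rpl801 (chrI:4251087-4251157, minus strand) and rpl802 (chrII:1726938-1727008, plus strand), annotated as L8 or L2, a large subunit protein of the ribosomal core, the stretch was 47 bp.
rpl801: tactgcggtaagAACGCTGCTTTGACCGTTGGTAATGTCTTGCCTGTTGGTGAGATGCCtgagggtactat
rpl802: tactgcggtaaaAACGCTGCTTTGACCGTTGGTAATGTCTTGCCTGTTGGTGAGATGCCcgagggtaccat
In rps2401 (chrI:3599478-3599545, plus strand) and rps2402 (chrII:2181318-2181385, plus strand), of the 40S subunit, it was 44 bp.
rps2401: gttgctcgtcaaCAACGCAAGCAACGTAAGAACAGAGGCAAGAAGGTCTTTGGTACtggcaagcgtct
rps2402: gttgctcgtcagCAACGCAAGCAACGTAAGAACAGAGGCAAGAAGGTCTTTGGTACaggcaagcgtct
In rpl1701 (chrII:1733664-1733728, minus strand) and rpl1702 (chrIII:482479-482543, minus strand), whose protein lines the exit tunnel of the 60S subunit, it was 41 bp.
rpl1701: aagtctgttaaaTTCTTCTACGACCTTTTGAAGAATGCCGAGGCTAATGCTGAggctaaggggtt
rpl1702: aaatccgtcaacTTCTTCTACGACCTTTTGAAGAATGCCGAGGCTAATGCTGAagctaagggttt

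Counts were found between the copies of a ribosomal protein gene where the copies share at least 50 bp, and in few other cases. The reference holds 60 gene pairs of the same rpl or rps family, in 54 families, including the genes of chromosome III. All 17 pairs whose fragments share a stretch of 50 bp or longer had counts, from 60 to 13494 over the 3 phases. Of the 43 pairs that share less, 39 had no count in any phase, where a count of 0 allows up to 3 counts. A read that lies wholly within a shared stretch has the same letters in both copies, and the tables do not mark how such reads were placed, so the part of read placement in these counts was not tested. The 4 exceptions were rpl1701 and rpl1702 (63 counts in G1, 64 in G2 and 39 in M phase), rpl801 and rpl802 (2 counts, in G1), rps401 and rps402 (1 count, in G1) and rpl801 and rpl803 (1 count, in M).

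The printed pairs were chosen after their values were seen, so they illustrate this border and do not test it. The rpl17 copies (41 bp, with 63, 64 and 39 counts) went against it. Between the rpl10 copies the counts were 2965 (G1), 2288 (G2) and 2501 (M phase). The rps16 copies had 62, 56 and 46 counts in the same order. The rpl19 copies, of which only rpl1901 is in the group, had 31, 11 and 18 counts. The rps24 copies had 0 counts in all phases. The other pairs that share 41 bp, among them the copies of rpl4, rpl15 and rpl36, had 0 counts as well, so the rpl17 copies stood apart from pairs with an equally long stretch.

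Among the 17 pairs the counts rose with the length of the stretch (Spearman's rho 0.93 over 17 gene pairs of the same 3 tables, given as a description) and less with the identity of the coding sequences (rho 0.57). Identity alone did not mark the pairs with counts. It was 83.2 to 99.6% in the 17 pairs and 66.1 to 93.5% in the 43 others. The copies of rpl16, a large subunit protein, were the least alike of the 17, and their coding sequences share no more than 26 bp. Their stretch of 410 bp lay in tef102 and tef103, genes of translation elongation factor EF1-alpha that lie on the same fragments. In the other 16 pairs the stretch lay wholly or almost wholly in the ribosomal protein coding sequence. Of the gene pairs of large subunit families 11 of 35 shared 50 bp, and of those of small subunit families 6 of 25.

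**Figure D1:**
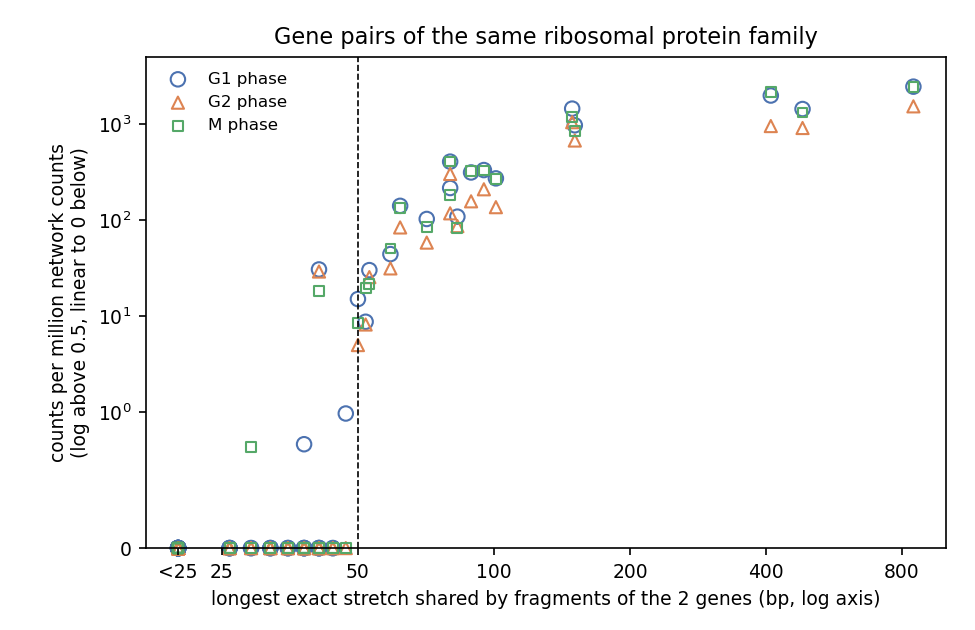
Each symbol is 1 of 60 gene pairs of the same ribosomal protein family in 1 phase, by the longest exact stretch shared by fragments of both genes (x, log axis; pairs under 25 bp are drawn at the left) and counts per 1000000 network counts (y). The dashed line marks 50 bp: all 17 pairs at or beyond it have counts, and 39 of the 43 pairs before it lie at 0.

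Pairs in which both fragments belong to the group numbered 52, and 15 of them had all but a handful of the counts. These 15 pairs share a stretch of at least 50 bp, held 13107 counts in G1, 9218 in G2 and 12534 in M phase, and each reached the cut-off for a significant interaction, 3 counts, in all 3 phases. Over the whole network, with or without a shared stretch, 37.7% of the pairs significant in at least 1 phase were significant in all 3. The 15 pairs each held at least 20 counts over the phases. No share was taken for network pairs alike in stretch or counts. The other 37 pairs held 27, 7 and 8 counts, none had more than 2 counts in total, and 32 had 1. None of these 37 pairs was therefore significant at this depth.

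The copies of rpl3, whose protein lies near the catalytic centre of the 60S subunit, had the most counts of any pair of members. Their fragments, chrI:1755711-1759393 and chrI:4909381-4913501 in the build of the tables (ASM294v2), had 5019 counts in G1, 3345 in G2 and 5130 in M phase and share 848 bp. The rpl10 copies followed with 2948, 2266 and 2494 counts between rpl1002 on chromosome I and rpl1001 on chromosome II.

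Other pairs held fewer counts. The rpl5 copies, whose protein binds 5S ribosomal RNA, had 833 counts in G1, 662 in G2 and 860 in M phase. The rps4 pair rps401 and rps403 had 681, 459 and 696, and the rps14 copies 558, 299 and 569. The rpl20 copies had 443, 258 and 386 and the rpl11 copies 204, 154 and 166. The rpl11 protein sits with rpl5 on 5S ribosomal RNA. All 5 were lower in G2 than in G1 and M phase.

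The lowest pairs varied more between phases. The rpl21 copies had 91, 69 and 107 counts, and rps2201 and rps2202 had 18, 18 and 42, the only pair of genes at over 2 times its G1 level in M phase (2.26-fold in counts scaled to the network). Fragments that adjoin the shared stretch had few counts: the neighbour of the rpl1102 fragment had 19, 36 and 10 with rpl1101, and the neighbour of the rpl1001 fragment 17, 22 and 7 with rpl1002. These neighbour pairs were the 2 of the 15 that were higher in G2 than in G1 phase. The last pair, of 6, 3 and 11 counts, joined rpl1001 with a fragment beside rps602, and its stretch of 75 bp lay in a long terminal repeat (LTR) of a retrotransposon.

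**Figure D2:**
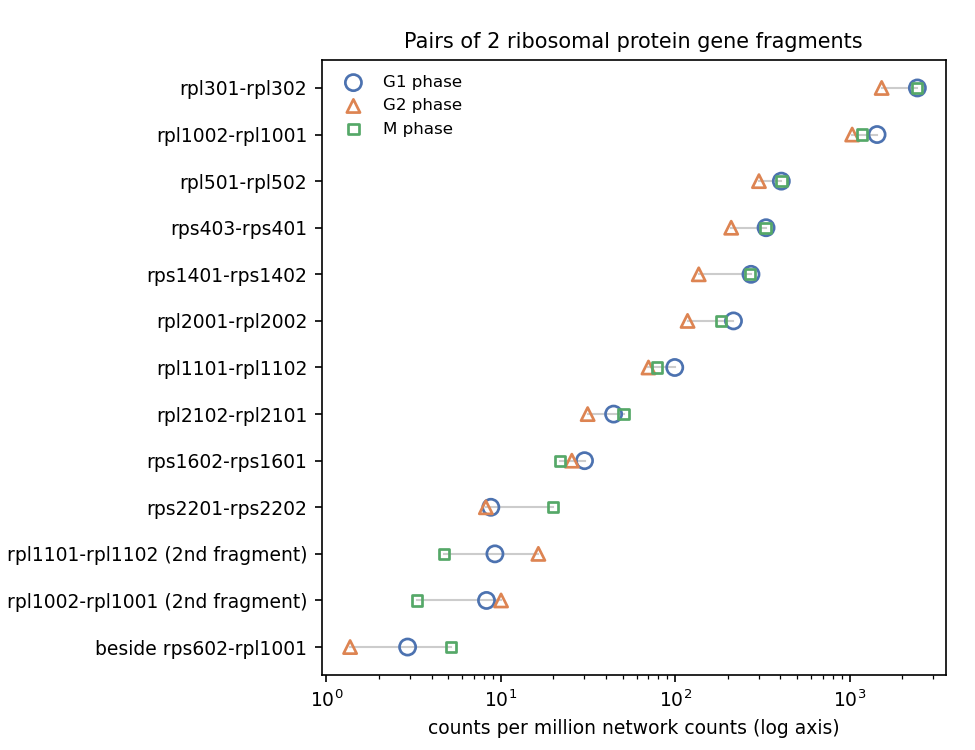
Counts per 1000000 network counts (x, log axis) of 13 of the 15 significant pairs of 2 ribosomal protein gene fragments, 1 row a pair, in G1 (circles), G2 (triangles) and M phase (squares), with 1 pooled table a phase and no replicate error. G2 phase is the lowest in the upper 8 rows, from rpl301-rpl302 at 2440, 1523 and 2420 to rpl2102-rpl2101 at 44.2, 31.4 and 50.5.

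Counts of the group as a whole were lower in G2 phase, which holds for the sum of pairs with a shared stretch and not for the sum of the others. Pairs with at least 1 member held 31122 counts in G1, 20739 in G2 and 30556 in M phase, which is 1.51% (95% Wilson interval 1.496 to 1.53), 0.944% (0.931 to 0.957) and 1.44% (1.43 to 1.46) of the network. Pairs that share a stretch of 50 bp made up 86.5%, 83.4% and 92.1% of these counts, although only 39 of the 252 fragments had such a pair. Without them the group held 0.204% of the network counts in G1, 0.157% in G2 and 0.114% in M phase, so M phase was the lowest, and in pairs of 2 repeat-free fragments G2 phase was the highest (168, 499 and 215 counts). Among the 14 pairs of members with at least 20 counts over G1 and G2 phase, 12 were lower in G2 in counts scaled to the network, where 53.2% of all such pairs of the network were. Of the 126 pairs of a member with another fragment outside the rDNA, 106 (84.1%) were lower in G2. From G2 to M phase 19 of 141 such pairs (13.5%) were lower, where 48.2% of the network's pairs were. From G1 to M phase 56 of 158 (35.4%) were lower, beside 51.5% in the network. Many of these pairs share a fragment, so they are not independent. Over pairs of any count, the 183 that share an LTR stretch involved only 4 member fragments. Most of their counts lay at 1 fragment beside rps602, which does not hold the gene.

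Of all pairs with a member and a count, 511 of 3009 were significant in G1, 451 of 2501 in G2 and 324 of 2107 in M phase. These are 16.98%, 18.0% and 15.4%, and over all pairs of the network the shares were 17.9%, 19.3% and 16.2%. The group was thus near the network in this respect. Of 647 pairs significant in at least 1 phase, 251 were so in all 3 (38.8%, 35.1 to 42.6), beside 37.7% in the network. The share was 191 of 229 (83.4%) for pairs with a shared stretch, 52 of 346 (15.0%) for rDNA partners and 8 of 72 (11.1%) for the rest. These shares were not taken for the same classes of pairs in the network.

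**Figure D3:**
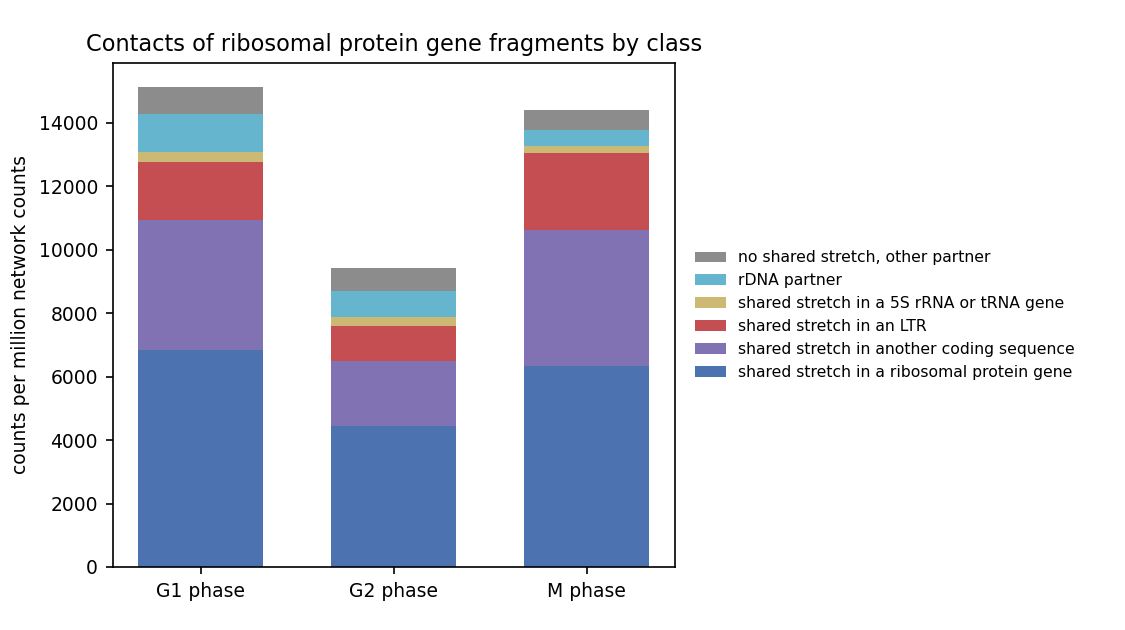
Counts per 1000000 network counts (y) of all pairs with a ribosomal protein gene fragment in the pooled table of each phase (x), stacked by the feature that holds the shared stretch or by the partner. Shared stretches in ribosomal protein genes, other coding sequences and LTRs make up most of each bar, and the bar of G2 phase is the lowest.

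Outside the ribosomal protein genes, the shared stretches lay in a few known repeats. A fragment with rpl1602 and tef102, genes of the 60S subunit and of EF1-alpha, which delivers aminoacyl-tRNA to the ribosome, had the most counts of any member: 8129 in G1, 4205 in G2 and 8648 in M phase. It had 4058, 2086 and 4538 counts with the fragment of rpl1601 and tef103 on chromosome II, and 3981, 2055 and 4049 with that of tef101, a further EF1-alpha gene, on chromosome III. Pairs that share EF1-alpha or another coding sequence held 8451, 4504 and 9063 counts in only 5 pairs. One of these joined rpl302 with mfm3 on chromosome II, at 306, 275 and 385 counts, through 91 bp in the mating pheromone genes mfm1 and mfm3.

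LTR stretches accounted for 183 pairs but only 4 member fragments, with 3733, 2406 and 5142 counts. Most belonged to the fragment chrI:3321099-3322362, which lies in the iec5 region beside rps602 and had 2587, 1611 and 3622 counts in all. It named its ribosomal protein gene only as a neighbour. The fragment of rpl1001 also carried an LTR, and had 227, 166 and 267 counts with a fragment of pwp1. Genes of 5S ribosomal RNA were the shared feature in 64 pairs (440, 338 and 359 counts) and tRNA genes in 9 pairs (237, 257 and 118 counts). The tRNA pairs alone had more counts in G2 than in G1 phase, and their M phase counts were the lowest.

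Ribosomal protein genes of chromosome III and others without the chosen words entered as partners. The pair rpl802 and rpl803 had 643, 344 and 691 counts with a stretch of 89 bp, and rpl3703 and rpl3702 had 211, 128 and 181 with 71 bp. Both pairs were lowest in G2 phase. The copies of rpl12 on chromosome III, neither of which is a member, had 2937, 1991 and 2789 counts.

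Pairs without a shared stretch and outside the rDNA held 1740 counts in G1, 1627 in G2 and 1346 in M phase, almost all in pairs of 1 count: 1470 of 1548 pairs in G1, 1161 of 1305 in G2 and 1126 of 1186 in M phase. In pairs of 2 repeat-free fragments, which have no 50 bp stretch elsewhere in the nuclear genome, there were 168, 499 and 215 counts and 10, 39 and 8 significant pairs. Only 5 of the 42 repeat-free pairs significant in some phase were so in all 3. Of these, 3 joined the fragments of rpl1701 to those of rpl1702, at 27, 28 and 10, at 24, 24 and 16, and at 12, 12 and 13 counts.

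The other 2 joined the fragment of rps3, a 40S protein at the entry of the mRNA, to neighbouring fragments of pic1, the gene of an inner centromere protein, across 1465962 and 1465928 bp of chromosome II. One had 6, 5 and 14 counts (in the order G1, G2, M) and the other 5, 5 and 13, and M phase was the highest in both. Several repeat-free pairs had no count in M phase. The fragment of rps1801 had 4, 9 and 0 counts with tea4, a gene of cell polarity. A fragment pair that joins mei2 with a fragment beside an rpl5 gene had 4, 8 and 0 counts, and another had 4, 7 and 0. The mei2 gene encodes an RNA-binding protein of meiosis. A fragment in utp22, which acts in assembly of the small subunit and lies beside a 60S gene, had 2, 7 and 2 counts with gmh5.

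Without shared stretches and rDNA, the group's contacts within a chromosome took a lower share than those of other fragments in G2 phase, where the intervals did not overlap, and the intervals overlapped in G1 and M phase. Contacts within a chromosome took 39.7% (37.4 to 42.0), 38.0% (35.7 to 40.4) and 39.5% (36.9 to 42.1) of these counts in G1, G2 and M phase, and 38.3% (37.9 to 38.8), 41.3% (40.8 to 41.7) and 40.5% (39.9 to 41.0) in pairs without a member. Pairs without a member include contacts within chromosome III, which the group cannot have. No test was made of these differences. In G1 phase, contacts within chromosome I held 28.3% of the counts of the group, contacts between I and II 33.7%, between I and III 15.7%, within II 11.4% and between II and III 11.0%. Loops over 500 kb held 88.0%, 85.9% and 83.6% of the counts within a chromosome, and 2, 6 and 9 pairs spanned under 10 kb.

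Contacts with the rDNA were weak and wide. The rDNA partners were the 20 outermost fragments of chromosome III, up to position 24680 and from position 2439432 in the build of the tables, and none of them shares a 50 bp stretch with a member. Of the 252 fragments, 243 (96.4%) had a count with the rDNA in at least 1 phase, as had 95.5% of all other nuclear fragments. Counts with the rDNA were 2457 in G1, 1813 in G2 and 1064 in M phase, or 1195, 825 and 502 per 1000000 network counts. Per kb of fragment they were 5.996, 4.42 and 2.60, beside 6.34, 4.84 and 3.03 for all other fragments, so both fell from G1 through G2 to M phase.

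The counts with the rDNA followed the length of the fragment (Spearman's rho 0.96 over 252 fragments of the same tables, given as a description). The fragment of rpl1701, 7779 bp long, had 43 counts in G1, 28 in G2 and 26 in M phase. That of rpl4101, the smallest 60S protein, at 6786 bp had 35, 38 and 24. Among the 10 fragments with the most rDNA counts, those of rpl1802, rps1601, rpl22 and rps901 had 65 to 73 counts over the phases, and these 4 were lowest in M phase. On the side of the rDNA, the 3 fragments of 8386 or 8408 bp took most contacts, with 47.3% in the 2 copies of 8386 bp and 21.6% in the copy of 8408 bp. How reads were placed among copies of the repeat is not marked, so the split between copies was not tested.

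**Figure D4:**
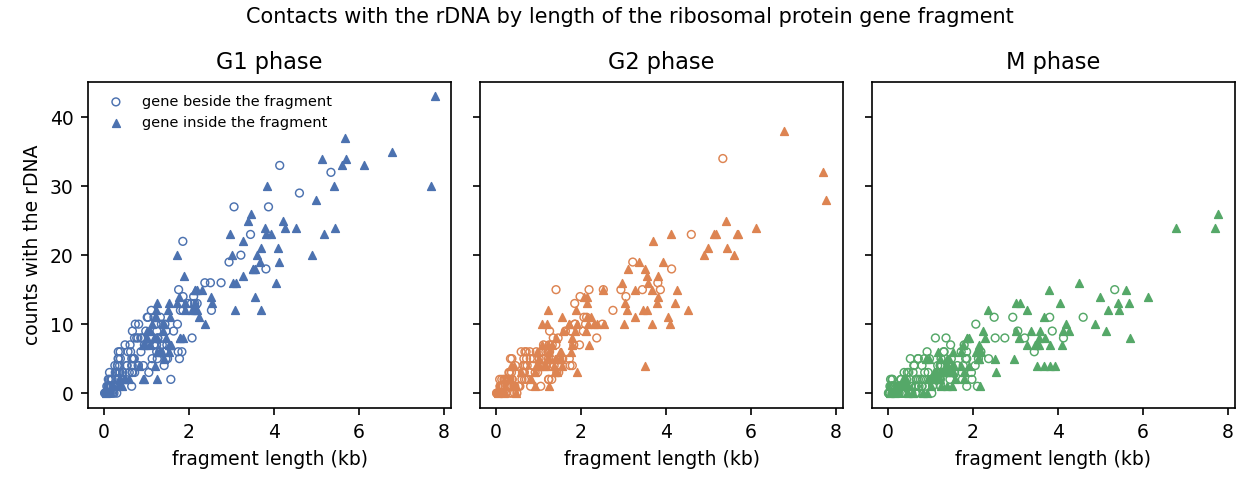
Counts with the rDNA (y) by fragment length in kb (x) for the 252 ribosomal protein gene fragments, 1 panel a phase; filled triangles hold the gene and open circles lie beside it. Counts rise with length in each phase, and the longest fragments reach 43 counts in G1 and 26 in M phase.

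Among significant pairs, rDNA partners took 53.6% (274 of 511, interval 49.3 to 57.9) in G1, 43.2% (195 of 451, 38.7 to 47.8) in G2 and 28.1% (91 of 324, 23.5 to 33.2) in M phase. Two-sided Fisher's exact tests on the pooled tables, adjusted over the 3 pairs of phases by the Benjamini-Hochberg method, gave adjusted p = 0.00153 for G1 against G2, 2.47e-05 for G2 against M and 1.02e-12 for G1 against M phase. In pairs without a member the shares were 53.1%, 44.9% and 28.7%, close to those of the group. Without pairs that share a stretch, the difference between G2 and M phase turned: M was 3.67 percentage points higher (Fisher's exact test, adjusted p = 0.482). In the 102 fragments that hold the gene, G2 minus G1 was -8.42 percentage points (Fisher's exact test, adjusted p = 0.0508).

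Contacts within a chromosome took 16.6% (13.7 to 20.1) of significant pairs in G1, 22.0% (18.4 to 26.0) in G2 and 26.9% (22.3 to 31.9) in M phase. The same Fisher's exact test gave adjusted p = 0.00132 for G1 against M, 0.0601 for G1 against G2 and 0.125 for G2 against M phase. Pairs without a member had 31.02%, 33.3% and 37.8%, higher in each phase, but they include rDNA pairs within chromosome III, which the group cannot have. When rDNA partners, which all lie on another chromosome than the members, were left out, the shares were 35.9%, 38.7% and 37.3%, and M exceeded G1 phase by 1.47 points (Fisher's exact test, adjusted p = 0.780). The group's interval in each phase overlapped those of its other phases. Pairs without a member and without the rDNA had 42.1% (40.9 to 43.2), 42.6% (41.5 to 43.7) and 41.7% (40.5 to 42.9). These intervals overlapped those of the group, 30.0 to 42.2, 32.9 to 44.8 and 31.4 to 43.7.

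**Figure D5:**
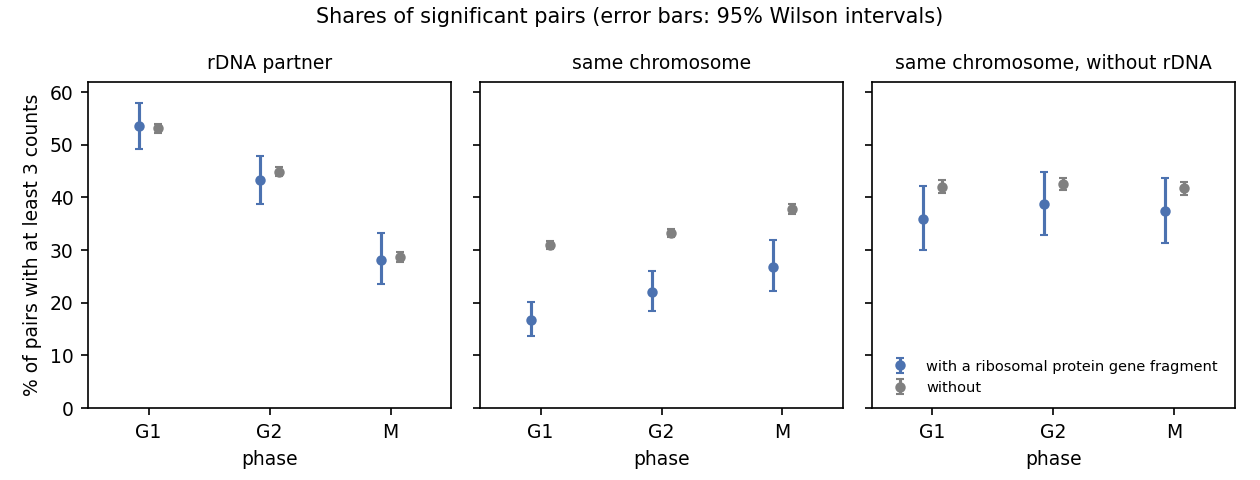
Share of significant pairs (y, %) with an rDNA partner, within a chromosome, and within a chromosome without rDNA partners, for pairs with (blue) and without (grey) a ribosomal protein gene fragment, by phase (x), with 95% Wilson intervals. The rDNA shares fall from G1 to M phase in both, and the shares within a chromosome without the rDNA lie between 35.9 and 42.6%.

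Single fragments were compared by counts scaled to the network total of the phase, with a difference of at least 2-fold and at least 20 counts over both phases as the limit. From G1 to G2 phase, 13 of 147 fragments were lower (8.84%) and 2 higher (1.36%), where 8.14% and 2.13% of all fragments were. From G2 to M phase, 22 of 114 were lower (19.3%) and 3 higher (2.63%), beside 25.6% and 1.95%. From G1 to M phase, 41 of 123 were lower (33.3%) and 0 higher, beside 34.8% and 0.358%. The group was therefore near the background in each comparison.

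The 3 fragments that were higher in M than in G2 phase held repeats: the fragment beside rps602 (2.33-fold), that of rpl1602 (2.13-fold) and that of rpl802 (2.04-fold, 366 counts in G2 and 720 in M phase). Without shared stretches these folds were 1.31, 0.99 and 1.37 in the same order, none of them at the limit of 2-fold. Fragments of low counts led the other direction. The fragment of rpl2401 had 23 counts in G1, 12 in G2 and 6 in M phase, that of rps2502 had 25, 13 and 7, and that of rps001 and rpl2701 had 16, 11 and 4. From G1 to G2 phase the fragment of rps402 fell from 15 to 6 counts.

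Other gene lists give values to set beside those of the group. Counts in pairs with a shared stretch were found in 39 of 252 member fragments (15.5%), and in 31 of the 102 that hold the gene (30.4%). The share was 5 of 127 (3.94%) for fragments annotated as mitochondrial ribosomal protein, 1 of 74 (1.35%) for translation factors, 2 of 24 (8.33%) for histones and 863 of 9192 (9.39%) for the nuclear fragments outside the group and the rDNA. The translation factor list does not hold the EF1-alpha fragments described above. That of tef102 is in the group, and those of tef101 and tef103 are outside the list. Its share is therefore not one for all translation factor genes. No test was made of these shares. The fragments that hold the gene were also longer, at a median of 2099 bp beside 864 bp in the nuclear fragments outside the group. Of the 39 fragments, 29 had a pair whose shared stretch lay in a ribosomal protein gene. Per kb of summed length and without shared stretches or rDNA, the group had 4.31 counts in G1, 3.99 in G2 and 3.30 in M phase. Mitochondrial ribosomal protein fragments had 3.91, 3.93 and 3.02, and all other fragments 7.19, 7.30 and 5.57. Median counts per fragment are not scaled to length, so they cannot be set against these values per kb. The median was 4, 4 and 3 counts in the group (median length 1238 bp) and 3, 4 and 3 in all other fragments (864 bp). Many of the genes share a promoter element that the choice of fragments did not use. The motif CAGTCACA, known as HomolD, was searched on either strand in the 300 bases before the coding start. It was found in 91 of 143 ribosomal protein genes (63.6%). Of all 5113 protein-coding genes, which include the ribosomal protein genes, 125 had it (2.44%).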

How the data were processed

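The authors digested cross-linked chromatin with AseI, ligated it, sequenced 50 bp paired ends and positioned the ends without mismatches with Topography. The deposited counts are raw numbers of read pairs per pair of fragments, with the biological replicates of a phase pooled and without normalization. The tables do not mark how ends in repeated sequence were placed. The number of per-sample columns left unused was 0. A second table a phase that the labels name was not used here.

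Each pair was used once. Neighbouring fragments and contacts with mitochondrial or plasmid DNA were kept out of the network. The cut-off of at least 3 counts, which the paper's methods use, defined a significant pair. The paper analysed uniquely positioned fragments unless it stated otherwise. Here pairs in repeated sequence, the rDNA among them, were kept, and 19741 pairs of the network were significant in at least 1 phase. Whether the paper's false detection rate holds for this wider set was not tested. Members were found by the words 60S or 40S ribosomal protein in the annotation. The members and the comparison lists were chosen with earlier results of these data known. Per the labels the build was ASM294v2. Fragments were matched by their AseI ends to the RefSeq genome ASM294v3, in which 9461 matched and 3 did not; coordinates of fragments are those of the tables and coordinates of sequences those of ASM294v3. A pair shares a stretch when an end, or its neighbour, has 50 bp in common with the other end on either strand. Coding sequences were aligned globally with Biopython 1.88. Gene pairs were taken from genes named rpl or rps.

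Wilson intervals (95%) and two-sided Fisher's exact tests used SciPy 1.17.1. Each test compares pooled tables, not conditions. It treats pairs, or counts where weighted by counts, as independent. They are not, since pairs share fragments and many pairs are significant in more than 1 phase. Read pairs without molecular identifiers are not independent molecules, so intervals cover counting error only. The scripts were tested on simulated data. Named were the 15 pairs of 2 members and the 15 members with the most counts, the 10 leading pairs with other fragments (with and without a shared stretch), the 10 leading members by rDNA counts, the 10 leading repeat-free pairs and, between phases, the 5 members with the largest fold each way; of these lists the text gives a selection, and some entries are not reported here. Gene pairs printed as sequence were chosen after their values were seen. Alternatives were another cut-off, leaving out pairs with a shared stretch, rDNA partners or the leading pairs, other minimum counts, and another definition of members.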

Additional observations from a re-analysis of the deposited data

Results flagged for a closer look

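Some counts lay in pairs that the network leaves out. Members were joined to the mitochondrial genome by 19 counts in G1, 17 in G2 and 24 in M phase, all in pairs of 1 or 2 counts, of 8725, 7421 and 9099 such counts over all nuclear fragments. Members had 0 counts with the plasmid controls in each phase. Members were joined to the next fragment of the chromosome by 234 counts in G1, 310 in G2 and 174 in M phase, in 36, 64 and 34 pairs, of 23459, 38664 and 16251 such counts over all nuclear fragments. These values were listed because the main comparisons do not use such pairs, and nothing is read from them about the group. The tables used here pool the replicates of a phase, so samples that stand apart from others of their group were not looked for.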

How the results depend on the processing

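No paired analysis was possible because the authors pooled the replicates of each phase, and for the same reason no replicate could be left out. In G1, G2 and M phase, the counts of the group were 4197, 3440 and 2410 without pairs that share 50 bp, 3984, 3304 and 2271 without pairs that share 25 bp, 168, 499 and 215 in pairs of repeat-free fragments, 28665, 18926 and 29492 without rDNA partners, 10039, 7578 and 9414 without the 10 leading pairs, and 53275, 35081 and 53416 for fragments that overlap a gene of the reference. An alternative chosen after seeing the data kept only the 102 fragments that hold the gene, with 26383, 17305 and 25643 counts. Significant pairs numbered 789, 712 and 497 at 2 counts, 319 in G1 and 280 in G2 phase at 5 counts, 300, 249 and 111 without shared 50 bp stretches, 10, 39 and 8 in repeat-free pairs, and 281, 246 and 172 with the gene inside.

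The share within a chromosome changed its call or direction in 10 cases by Fisher's exact test. By this exact test G2 exceeded G1 phase by 1.21 percentage points weighted by counts (adjusted p = 0.00805), 5.97 at 2 counts (0.00324) and 5.17 without shared stretches (0.0347), and was below it in repeat-free pairs (-21.5, 0.872). M differed from G2 phase by 1.14 weighted by counts (0.00911) and by -1.33 without the rDNA (0.780). M differed from G1 phase by 9.36 at 5 counts (0.0575), -10.0 in repeat-free pairs (1), 1.47 without the rDNA (0.780) and 8.38 with the gene inside (0.0575). The rDNA share of M phase was 3.67 above that of G2 phase without shared stretches (0.482), and with the gene inside G2 minus G1 was -8.42 (0.0508). The share of pairs significant in all phases was 28.9% at 2 counts, 46.9% at 5, 14.4% without shared stretches and 70.9% where 1 count sufficed in the other phases.

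At a minimum of 10 counts, 4 of 194 fragments were higher and 28 lower in G2 than G1 phase. Of 185, 5 were higher and 42 lower in M than G2, and of 187, 1 higher and 73 lower in M than G1 phase. At 50 counts, 0 of 65 were higher and 2 lower in G2 than G1 phase. At that minimum 5 of 51 were lower in M than G2 and 10 of 55 in M than G1 phase. Without shared stretches 1 of 140 was higher in G2 than G1 and 0 of 103 in M than G2 phase. With the gene inside, 0 of 88 were higher and 6 lower in G2 than G1 phase. In that set 10 of 73 were lower in M than G2 and 20 of 78 in M than G1 phase. The share over all fragments was not taken at these settings, so nothing is read from these numbers about the group. Without shared stretches the fold turned for rpl1602 (0.99, M over G2), rpl701 with rps1402 (0.56, M over G2), the iec5 fragment beside rps602 (0.65, M over G1), rps2201 (0.38, M over G1) and rpl2101 (0.68, M over G1). The cause of these changes was not tested. Each alternative also changes which pairs or fragments are counted. Pairs of 1 or 2 counts, most of those without a shared stretch, are at the limit of the depth.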
